A study of Oryza sativa with 9 samples.

Results

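The response of submerged rice leaves to a spray of gibberellin (GA) was examined in IR64, an *indica* variety that does not tolerate submergence, by comparing the leaf transcriptomes of GA-treated plants (GAT) with those of plants sprayed with the solvent alone (Control). All 38652 entries of the deposited expression table were considered, and the 22946 whose mean over its 9 libraries reached 0.5 FPKM were tested in GAT/Control. FPKM, fragments per kilobase of exon scaled to the mapped fragments, is a level relative to transcript length and to library size. The affected functions are described with the gene descriptions, GO terms and KEGG pathways of the same table.

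Each group has 3 libraries. At 20 days of age, IR64 seedlings received a 25 mL spray of 100 mg/L GA (GAT), of 200 mg/L paclobutrazol (PB), an inhibitor of GA synthesis (PBT), or of solvent only (Control), and after 2 days they were put under 100 cm of water for 4 days before the leaves were taken. All 3 groups were submerged, so the effect of submergence itself cannot be read from these libraries. The labels give 0.1% ethanol as the treatment of the Control libraries, while the paper's methods name methanol. The paper calls the libraries biological triplicates, and the labels do not say whether they came from separate plants, so p-values measure the spread between these libraries. The PBT libraries entered the fit for the estimate of the spread and are given where GAT and PBT were compared directly.

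The libraries were alike in their totals, with 432165 to 471800 FPKM summed over all entries, and the 10 highest entries held 7.74% to 10.3% of the sum. GAT replicate 1 stood apart by 3673 tested entries at 0, against 2585 to 2934 in the other 8 libraries. FPKM of exactly 0 were found for genes that leaves use at high level: *PSAD* (LOC_Os08g44680), which encodes a photosystem I subunit, was listed at 1349.7, 1294 and 0 FPKM in Control and at 0, 635 and 632 in GAT. A gene at 0 in every library of a group is therefore given only as listed at 0, with no fold change. Where single libraries of a group are listed at 0, these values entered the fold change as they stand. The file of each single library was also compared with the table, and 4 of these 9 files, those of GAT replicates 1, 2 and 3 and of PBT replicate 3, held the column of another library. The file labelled GAT replicate 1 held the column that the table names PBT replicate 3, so that the labels of the files and of the table's header disagree, and the header was followed. The summed FPKM of the leaf mesophyll markers that were tested (8 of 9 listed, such as Rubisco small subunits and chlorophyll-binding proteins) was 18080 to 18680 in the columns headed PBT, 13540 to 14010 in those headed GAT and 24230 to 27490 in Control. Of 4 root markers, 2 have an entry and 1 was tested, and both entries together were at 15.9 to 27.2 FPKM over the 9 libraries. The labelled tissue was matched by the high values of its leaf markers. The tested root marker was not absent, with a mean of 23.1 FPKM in Control and 17.5 in GAT. Over the 9 libraries the median tested entry was at 4.19 to 4.94 FPKM.

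Gibberellins are diterpenoid hormones that promote the elongation of stems and leaves. They bind the receptor GID1, which then brings about the breakdown of the DELLA protein SLR1, a repressor of growth. GA 20-oxidases and GA 3-oxidases form the bioactive GAs, GA 2-oxidases inactivate them, and in many plants high GA lowers the expression of the synthesis genes and raises that of the 2-oxidases. Under water, IR64 lacks the *SUB1A* gene that restrains elongation and the use of carbohydrate in tolerant varieties.

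Designed qRT-PCR primers are shown for 4 loci on which the results below turn, as they mark the transcript stretch that was chosen for each gene. All are written 5′ to 3′ with a forward and a reverse primer per locus, and no part is set off in capitals.
*SD1* (LOC_Os01g66100, chromosome 1) forward: cgctgacgatcatggaactc
*SD1* (LOC_Os01g66100, chromosome 1) reverse: agttgcaccgcatgattgag
*MPK3* (LOC_Os03g17700, chromosome 3) forward: ggaacaagttcgaggtgacg
*MPK3* (LOC_Os03g17700, chromosome 3) reverse: caccatctccctcgtctcaa
*CIPK15* (LOC_Os11g02240, chromosome 11) forward: gcgtggaaagcttacagagg
*CIPK15* (LOC_Os11g02240, chromosome 11) reverse: ctgaaagcgcactcaatcca
*LHCB* (LOC_Os09g17740, chromosome 9) forward: ggagctcaaggtgaaggaga
*LHCB* (LOC_Os09g17740, chromosome 9) reverse: gacgaagaagccgaacatgg

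GAT differed from Control in a broad set of genes, in both directions. In the limma fit on log2(FPKM + 1), 1933 of the 22946 genes (8.42%) were differentially expressed genes (DEGs), that is, their adjusted p was under 0.05 and their mean log2 value differed by 1 or more. Of these, 1080 (4.71%) were upregulated and 853 (3.72%) downregulated. These shares of all rows are the background for the counts of each group below. Of the upregulated genes 516, and of the downregulated genes 425, also differed between GAT and PBT (adjusted p under 0.05 in limma, reached by 9.37% of all rows). The other DEGs did not differ between GAT and PBT at that limit. Both comparisons use the same GAT libraries and the same estimate of the spread, so these counts are no independent evidence for the calls. Among the DEGs the median log2 fold change was 1.56 for the upregulated and -1.60 for the downregulated genes, and over all rows tested it was 0.03. A difference of 3 or more on the log2 scale was reached by 79 upregulated and 72 downregulated genes. The counts include 122 DEGs listed at 0 in all 3 GAT libraries and 96 listed at 0 in all 3 Control libraries. As zeros also occur for genes of high expression, these calls are less certain. Adding 1 before taking logs understates the change of genes with low FPKM, and ± gives the standard error of the fit throughout. The 3 GAT libraries did not overlap with the 3 Control libraries in any of the 1933 DEGs, and such a separation was seen in 6777 of all rows tested (29.5%). Among the 676 genes with a mean of at least 100 FPKM, 39 were upregulated and 46 downregulated. Of the DEGs, 1157 (59.9%) stayed past both limits when each Control and GAT library was left out in turn, and where a gene named below did not, this is said beside it. In a fit of the Control and GAT libraries alone, which called 7.07% of all rows, 44 of the 251 named genes that were called lost the call and 4 of 43 that were not called gained it. The losses include *GA20ox4*, *ALDH2a*, *PDC1*, *bHLH1*, the entry of *ADH1* and *ADH2* and the dehydrin gene LOC_Os02g44870, all given below (adjusted p from 0.0576 to 0.124).

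**Figure D1:**
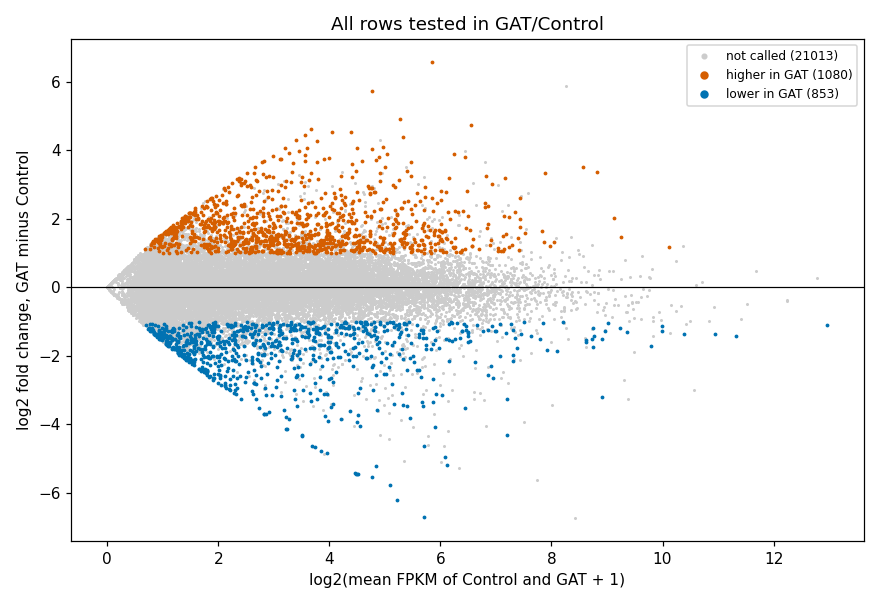
Each point is 1 of the 22946 rows tested, with the log2 of its mean FPKM over Control and GAT plus 1 on the x axis and the log2 fold change of GAT minus Control on the y axis. The 1080 upregulated rows (orange) and the 853 downregulated rows (blue) lie at all levels of expression, and the streaks at the edges are genes at or near 0 in 1 of the groups.

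Among the genes that make and remove GA, members of 2 oxidase families were upregulated in GAT. Of 20 loci of GA metabolism in the list, 14 were tested. Of these, 5 (35.7%) were upregulated, against 4.71% of all rows, and 0 downregulated, with a median log2 fold change of 0.56. These 5 comprise the GA 20-oxidase genes *SD1* and *GA20ox4* and the GA 2-oxidase genes *GA2ox3*, *GA2ox4* and *GA2ox7*. *SD1*, the GA 20-oxidase of the semidwarf "green revolution" varieties, was at 8.49, 7.80 and 2.75 FPKM in Control, 43.2, 47.6 and 42.6 in GAT and 13.8, 12.2 and 7.51 in PBT. Every GAT library lay above every library of the other groups (log2 fold change 2.74 ± 0.36, adjusted p = 0.0016 in GAT/Control). The GAT and PBT libraries, which share GAT with the comparison above, also differed in *SD1* (difference of 1.94 on the log2 scale, adjusted p = 0.0122, where 9.37% of all rows passed an adjusted p of 0.05). *GA2ox7* (LOC_Os01g11150), which encodes an enzyme that inactivates GA, was at 1.49, 1.14 and 1.25 FPKM in Control and 12.3, 6.31 and 10.3 in GAT (log2 fold change 2.17 ± 0.34, adjusted p = 0.00389).

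The other 3 calls in GA metabolism were lost when single libraries were left out. *GA2ox3* (LOC_Os01g55240) was at 15.6, 9.58 and 11.99 FPKM in Control and 49.9, 43.02 and 42.03 in GAT (log2 fold change 1.80 ± 0.42, adjusted p = 0.026), and the call was lost without any 1 of the 6 Control and GAT libraries (adjusted p up to 0.0957). *GA2ox4* (LOC_Os05g43880) went from 0.0661, 0 and 0.422 to 3.88, 2.19 and 1.65 FPKM (log2 fold change 1.59 ± 0.35, adjusted p = 0.0215) and lost its call without any 1 of Control replicate 1, Control replicate 2 and GAT replicate 2 (adjusted p up to 0.0604). The GA 20-oxidase gene *GA20ox4* (LOC_Os05g34854) was at 2.39, 3.23 and 2.64 FPKM in Control and 10.3, 4.67 and 9.01 in GAT (log2 fold change 1.21 ± 0.29, adjusted p = 0.0284), a call lost without any 1 of Control replicate 1, Control replicate 2, Control replicate 3, GAT replicate 1 and GAT replicate 3 (adjusted p up to 0.091). In each of the 3 genes all GAT libraries lay above all Control libraries. Groups were separated in this way in every DEG and in 29.5% of all rows tested, so it adds no support to these calls.

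The earlier steps of GA synthesis moved the other way or stayed near 0 without passing the test. The *ent*-kaurene oxidase gene *KO2* (LOC_Os06g37364) was at 24.4, 17.4 and 15.8 FPKM in Control and 5.59, 10.7 and 11.2 in GAT, with no overlap (log2 fold change -1.03 ± 0.30, adjusted p = 0.0653). *KAO* (LOC_Os06g02019), which encodes the oxidase of the next step, was at 4.79, 4.94 and 2.24 and 0.231, 2.56 and 0.412 FPKM, and here GAT replicate 2 lay above Control replicate 3 (log2 fold change -1.39 ± 0.43, adjusted p = 0.0772). The cyclase genes of the first steps had log2 fold changes of -0.18 (*CPS1*, LOC_Os02g17780) and 0.03 (*KS1*, LOC_Os04g52230), neither past the limits. The remaining loci tested, *GA20ox1*, *GA2ox6*, *GA2ox8*, *GA2ox9* and the GA-inactivating P450 gene *EUI1*, had log2 fold changes between -1.12 (*GA20ox1*, LOC_Os03g63970) and 0.83 (*GA2ox6*, LOC_Os04g44150) and adjusted p of at least 0.133.

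None of the 5 tested loci of GA perception and signaling was a DEG, and their median log2 fold change was 0.67. At an unadjusted p under 0.05 in limma, 3 were higher and 0 lower, and the fit of Control and GAT alone called 1, *SLRL1* (adjusted p = 0.0368). *SLR1* (LOC_Os03g49990), the DELLA repressor, was at 52.9, 55.7 and 49.2 FPKM in Control and 94.8, 79.98 and 86.2 in GAT. All GAT libraries lay above all Control libraries, and the change passed the p limit but not the fold limit (log2 fold change 0.71 ± 0.14, adjusted p = 0.0118). The receptor gene *GID1* (LOC_Os05g33730) was at 54.6, 49.1 and 46.8 FPKM in Control and at 100.3, 11.5 and 91.6 in GAT, where replicate 2 lay below and replicates 1 and 3 above every Control library (log2 fold change -0.06 ± 0.68, adjusted p = 0.977). *SLRL1* (LOC_Os01g45860), a relative of *SLR1*, was at 0.294, 0 and 0 and 3.79, 1.73 and 1.56 FPKM (log2 fold change 1.56 ± 0.56, adjusted p = 0.119), and *SPY* and *GAMYB* had log2 fold changes of 0.41 (LOC_Os08g44510) and 0.67 (LOC_Os01g59660). The entry at the *GID2* locus, -0.05 (LOC_Os02g36974), is described in the table as a 14-3-3 protein and cannot be read as the F-box gene *GID2*, so it is left out of the count and median above. The GA-stimulated GASA family had 3 tested members with a median of -0.97 and no DEG in either fit (2 lower at an unadjusted p under 0.05), among them *GASR7* (LOC_Os06g15620) at 1.35, 0.948 and 3.20 FPKM in Control and 0, 0 and 0.596 in GAT (adjusted p = 0.0594).

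Gibberellin is in the description of 48 tested entries, 8 of which are loci of GA metabolism given above. Of all 48, 5 were upregulated and 4 downregulated (18.8%, against 8.42% of all rows). Of the upregulated entries, 4 are oxidases given above. The other 5 DEGs are described as GA receptors, 4 of them of the GID1L2 type, a description that the table gives to many carboxylesterase-like genes and not only to the receptor. LOC_Os07g44850 was at 0, 0 and 0.851 FPKM in Control and 6.51, 5.45 and 4.09 in GAT (log2 fold change 2.35 ± 0.32, adjusted p = 0.00188). LOC_Os08g37040 fell from 7.21, 3.81 and 7.13 to 0, 0.288 and 0 FPKM (log2 fold change -2.65 ± 0.32, adjusted p = 0.00095), and LOC_Os06g20200 fell with -1.87 (adjusted p = 0.00483). Genes of the same description thus moved in opposite directions.

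**Figure D2:**
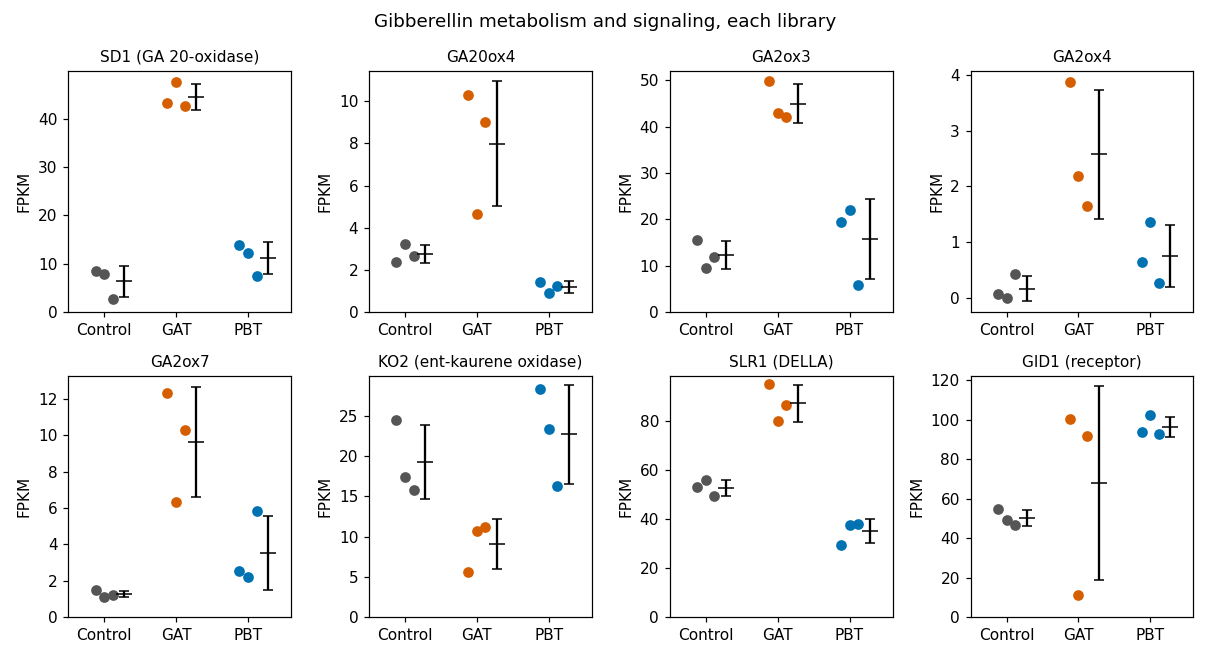
FPKM (y axis) of 8 genes of GA metabolism and signaling in each Control, GAT and PBT library (points), with the mean ± SD of the 3 libraries in black. *SD1* stands at 42.6 to 47.6 FPKM in GAT and at 2.75 to 8.49 in Control, the 3 GA 2-oxidase genes lie higher in GAT, and *GID1* spans 11.5 to 100.3 FPKM within GAT.

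Among the 18 listed loci of submergence and carbohydrate use, 16 were tested, 5 were upregulated and 3 downregulated, and the median log2 fold change was 0.46. Of all rows, 8.42% were DEGs. The paper names several of these loci, such as *CIPK15*, *MPK3*, *Amy3D* and *SPP*, as DEGs of these samples. The number of calls is therefore no independent evidence of an effect. The upregulated genes include *Amy3D*, *CIPK15* and alcohol dehydrogenase, and the downregulated ones *MPK3*, *SPP* and *ALDH2a*. *Amy3D* (LOC_Os08g36910) encodes an α-amylase that degrades starch and is known to be induced by sugar starvation. It was at 1.20, 0.990 and 0.867 FPKM in Control, 22.6, 26.7 and 24.3 in GAT and 9.56, 8.79 and 12.98 in PBT, with every GAT library above every other (log2 fold change 3.66 ± 0.19, adjusted p = 1.31e-05). *CIPK15*, a kinase gene known to act upstream of SnRK1A and *Amy3D* under low oxygen, was at 54.1, 49.1 and 51.7 FPKM in Control, 141, 142 and 132 in GAT and 87.5, 77.3 and 74.4 in PBT (log2 fold change 1.41 ± 0.11, adjusted p = 8.37e-05). The chromosome 11 entry has a near-identical copy on chromosome 12, and how reads were divided between them is not given in the sources used here. The kinase gene *SnRK1A* itself (LOC_Os05g45420) was at 27.5, 30.7 and 29.96 and 38.7, 21.4 and 31.5 FPKM, with overlap of the groups (log2 fold change 0.02 ± 0.20, adjusted p = 0.98).

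*MPK3*, a MAP kinase gene, fell from 80.6, 72.7 and 84.1 FPKM in Control to 12.9, 19.01 and 10.97 in GAT, with 114, 123 and 117 in PBT (log2 fold change -2.42 ± 0.19, adjusted p = 8.71e-05). *SPP* (LOC_Os01g27880), which encodes the phosphatase of the last step of sucrose synthesis, was at 25.5, 21.7 and 23.1 and 9.25, 7.45 and 11.7 FPKM (log2 fold change -1.24 ± 0.20, adjusted p = 0.00422). In both genes the highest GAT library lay below the lowest Control library, as in every downregulated DEG. *ALDH2a* (LOC_Os02g49720), an aldehyde dehydrogenase gene, was at 7.30, 5.58 and 6.38 and 1.05, 3.80 and 2.78 FPKM (log2 fold change -1.15 ± 0.30, adjusted p = 0.044), and its call was lost without any 1 of Control replicate 1, Control replicate 2, Control replicate 3, GAT replicate 1 and GAT replicate 3 (adjusted p up to 0.13).

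Genes of ethanolic fermentation had higher values in GAT, close to the limits of a DEG. *PDC2* (LOC_Os03g18220), a pyruvate decarboxylase gene, was at 55.6, 59.6 and 48.6 FPKM in Control and 107, 110.4 and 109.8 in GAT, just under the fold limit (log2 fold change 0.99 ± 0.11, adjusted p = 0.000715). The alcohol dehydrogenase genes *ADH1* and *ADH2* share 1 entry of the table (LOC_Os11g10510) and cannot be told apart there. It was at 56.9, 50.9 and 45.99 and 88.8, 168 and 79.5 FPKM (log2 fold change 1.04 ± 0.25, adjusted p = 0.0326), a call lost without any 1 of Control replicate 1, Control replicate 2, Control replicate 3, GAT replicate 1 and GAT replicate 2 (adjusted p up to 0.104). *PDC1* (LOC_Os05g39310) was listed at 0 in every Control library and stood at 3.95, 1.34 and 1.15 FPKM in GAT (adjusted p = 0.0292), and this call was lost without any 1 of Control replicate 1, Control replicate 2 and Control replicate 3 (adjusted p up to 0.0568). The cytosolic invertase gene *Cyt-inv1* (LOC_Os02g34560), at 6.62, 9.08 and 7.74 and 15.8, 18.4 and 15.98 FPKM (log2 fold change 1.01 ± 0.26, adjusted p = 0.0364), lost its call without any 1 of the 6 Control and GAT libraries (adjusted p up to 0.108).

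The ERF genes of the *SUB1* region did not pass the test. *SUB1B* (LOC_Os09g11480) and *SUB1C* (LOC_Os09g11460) had log2 fold changes of -0.14 and -0.16 with overlapping libraries. *EATB* (LOC_Os09g28440), an ERF gene known to restrain internode elongation, was at 43.2, 36.4 and 39.99 FPKM in Control and 1.84, 1.44 and 1.20 in GAT, a separation without overlap that did not pass in the fit of all 9 libraries (log2 fold change -4.04 ± 1.30, adjusted p = 0.086). The PBT libraries of *EATB* were at 42.8, 0 and 55.6 FPKM, and in a fit of the Control and GAT libraries alone, which called 7.07% of all rows, its adjusted p was 0.000489. *RSR1* (LOC_Os05g03040) and *MYBS1* (LOC_Os01g34060), regulators of starch synthesis and of amylase genes, had log2 fold changes of 0.91 and 1.11 (adjusted p = 0.0632 and 0.395).

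**Figure D3:**
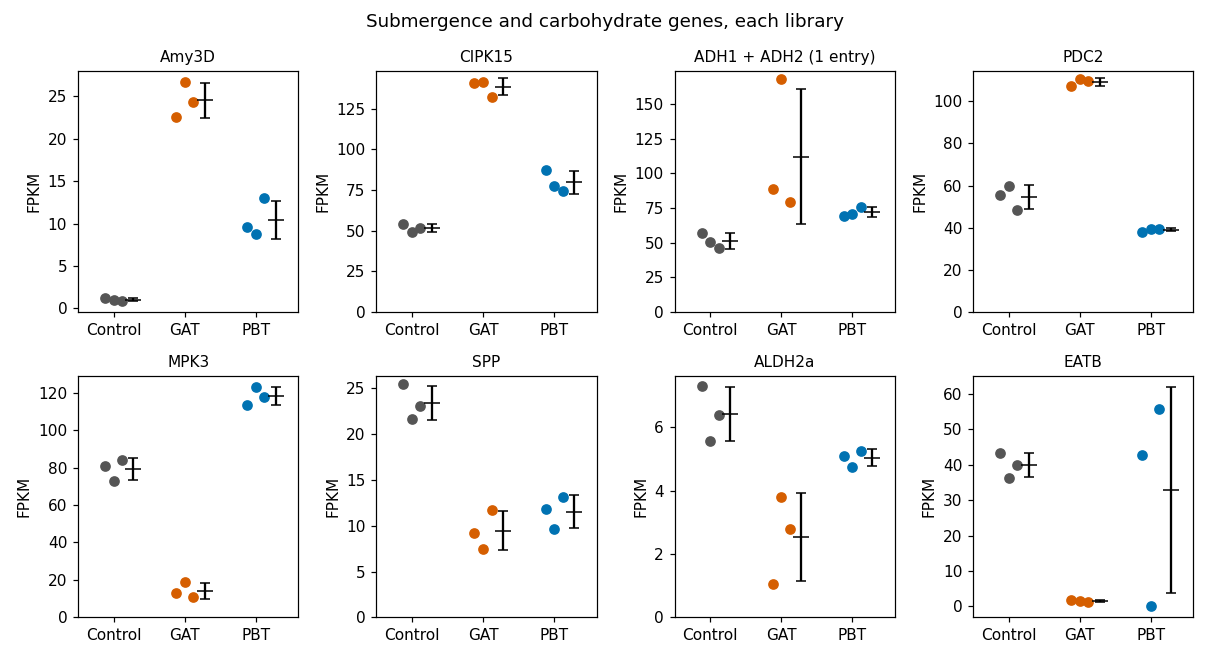
FPKM (y axis) of 8 genes of submergence response and carbohydrate use in each Control, GAT and PBT library (points), with the mean ± SD of the 3 libraries in black. *Amy3D* reaches 22.6 to 26.7 FPKM in GAT against at most 1.20 in Control, *MPK3* and *EATB* lie lower in GAT without overlap, and the entry of *ADH1* and *ADH2* is spread from 79.5 to 168 FPKM in GAT.

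Beyond these loci, carbohydrate pathways had DEGs in both directions. Of 97 tested genes of the KEGG pathway starch and sucrose metabolism, 6 were upregulated and 7 downregulated (13.4%), and several of them are β-glucanase genes and not starch enzymes. The family 17 glycosyl hydrolase gene LOC_Os01g51570 rose from 85.2, 74.7 and 73.2 to 279, 251 and 270.3 FPKM (log2 fold change 1.77 ± 0.10, adjusted p = 1.82e-05), while LOC_Os05g31140 of the same family fell from 217, 216 and 203 to 35.9, 30.8 and 33.1 (log2 fold change -2.64 ± 0.10, adjusted p = 4.14e-06). In glycolysis, 4 of 68 genes were upregulated and 1 downregulated (7.35%), below the 8.42% of all rows. A pair of genes described as fructose-bisphosphate aldolase, which splits a sugar diphosphate in glycolysis and joins its products in the Calvin cycle, moved in opposite directions. LOC_Os01g67860 was at 317, 311 and 334 FPKM in Control and 872, 898 and 924 in GAT (log2 fold change 1.48 ± 0.07, adjusted p = 9.20e-06). LOC_Os06g40640 was at 219.6, 196 and 204 in Control and 90.1, 102 and 104 in GAT (log2 fold change -1.06 ± 0.11, adjusted p = 0.000385).

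The DEGs among genes of light harvesting were downregulated. The KEGG pathway of antenna proteins, which hold chlorophyll in the light-harvesting complexes, had 10 tested genes. Of these, 5 (50%) were downregulated, against 3.72% of all rows, and 0 upregulated, with a median log2 fold change of -1.31. A single member had a higher value in GAT, LOC_Os01g52240 at 0, 0 and 0 FPKM in Control and 21.8, 0 and 0 in GAT, without passing the test (adjusted p = 0.441). By description, 6 of 12 chlorophyll a/b-binding protein genes were downregulated and 0 upregulated. The antenna gene *LHCB* (LOC_Os09g17740) was at 2828, 2858 and 2786 FPKM in Control, 1074, 1096 and 1145 in GAT and 1651, 1753 and 1639.9 in PBT, with the groups ordered Control, PBT and GAT and no overlap (log2 fold change -1.35 ± 0.06, adjusted p = 5.18e-06 in GAT/Control). LOC_Os04g38410 was at 598, 591 and 574 FPKM in Control and 185, 191 and 205 in GAT (log2 fold change -1.60 ± 0.09, adjusted p = 1.74e-05), and LOC_Os01g64960 at 623, 641 and 630.4 and 246, 223 and 237 (log2 fold change -1.42 ± 0.08, adjusted p = 1.63e-05). LOC_Os08g33820, at 1394, 1324 and 1331 and 444, 355 and 439 FPKM (log2 fold change -1.71 ± 0.35, adjusted p = 0.0152), lost its call without any 1 of Control replicate 1, Control replicate 2, Control replicate 3, GAT replicate 1 and GAT replicate 2 (adjusted p up to 0.0604). Quantile normalization, which forces the libraries to the same distribution, left the direction of these genes as it was and made the change of the most abundant ones smaller, to a log2 fold change of -0.73 for LOC_Os09g17740, and the downregulated antenna genes then numbered 3. In leaves analysed as a whole, fewer cells of a type and less RNA per cell cannot be told apart.

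Single genes of the photosystems, of carbon fixation and of chlorophyll synthesis were also downregulated, though most members of these pathways were not DEGs. Over all rows, 8.42% were DEGs and 3.72% were downregulated. In the KEGG pathway photosynthesis 5 of 54 genes (9.26%) were downregulated and 0 upregulated, with a median of -0.42. *PSB28* (LOC_Os01g71190), described as a photosystem II reaction center protein, was at 246, 274 and 246 FPKM in Control and 73.4, 83.1 and 65.6 in GAT (log2 fold change -1.78 ± 0.12, adjusted p = 5.17e-05). In carbon fixation, 1 of 43 genes was upregulated and 2 were downregulated (4.65%). Its share of DEGs in both directions, 6.98%, was below that of all rows. A Rubisco small subunit gene (*RBCS*, LOC_Os12g17600) was at 11298, 10727 and 10827 FPKM in Control and 5172, 5003 and 5134 in GAT (log2 fold change -1.10 ± 0.05, adjusted p = 5.18e-06), or a log2 fold change of -0.53 with quantile normalization. Another *RBCS* entry (LOC_Os12g19470), which joins several loci, was at 2535, 2479 and 2309 and 1257, 1178 and 1257 FPKM, just under the fold limit (log2 fold change -0.99 ± 0.06, adjusted p = 3.51e-05). Rubisco activase (*RCA*, LOC_Os11g47970) differed less (log2 fold change -0.39 ± 0.05, adjusted p = 0.00115). These *RBCS* and antenna genes belong to the leaf mesophyll markers, whose summed FPKM was 13540 to 14010 in GAT and 24230 to 27490 in Control. The *LHCB* entry LOC_Os01g41710, at 1709, 1542 and 1553 FPKM in Control and 663, 656 and 583 in GAT, did not pass in the fit of all 9 libraries (adjusted p = 0.772), in which PBT replicate 2 was listed at 0, and its adjusted p was 0.00147 in the fit of Control and GAT alone.

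In chlorophyll synthesis 2 of 17 genes (11.8%) were downregulated and 0 upregulated. The gene described as protochlorophyllide reductase A (LOC_Os04g58200), which carries out the light-dependent step of chlorophyll synthesis, was at 43.7, 36.7 and 39.8 FPKM in Control, 4.15, 2.995 and 4.34 in GAT and 9.81, 8.68 and 8.39 in PBT. The lowest Control library lay far above the highest GAT library (log2 fold change -3.10 ± 0.17, adjusted p = 1.82e-05). A magnesium chelatase gene (LOC_Os03g20700), of the first step toward chlorophyll, was at 127, 128 and 126 FPKM in Control and 52.96, 48.8 and 50.2 in GAT (log2 fold change -1.31 ± 0.09, adjusted p = 6.41e-05). A plastocyanin-like gene (LOC_Os08g37660) fell from 884, 888 and 839.6 to 92.4, 103 and 85.9 FPKM (log2 fold change -3.21 ± 0.09, adjusted p = 7.30e-07). Its description does not make it the plastocyanin of the thylakoid, since many cell wall copper proteins carry the same domain. An early light-induced protein gene, chosen after its values were seen (LOC_Os07g08150), was at 256, 257 and 264 FPKM in Control and 18.2, 65.1 and 14.5 in GAT (log2 fold change -3.27 ± 0.46, adjusted p = 0.00214).

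Of 28 tested genes of the KEGG pathway nitrogen metabolism, 7 (25%) were downregulated and 0 upregulated, with a median of -0.46. Over all rows, 3.72% were downregulated. The ferredoxin-nitrite reductase gene LOC_Os01g25484, of the chloroplast step that turns nitrite into ammonium, was at 53.9, 58.7 and 52.6 FPKM in Control and 18.9, 19.3 and 20.5 in GAT (log2 fold change -1.45 ± 0.12, adjusted p = 0.000163). A glutamate dehydrogenase gene (LOC_Os03g58040) was at 16.6, 18.3 and 20.5 and 8.39, 5.35 and 6.59 FPKM (log2 fold change -1.34 ± 0.18, adjusted p = 0.00175). Of the other 5 members that fell, LOC_Os01g63190 is described as a laccase, which acts on phenolic compounds and not on nitrogen, and went from 128, 109 and 109 to 28.7, 24.7 and 22.6 FPKM (log2 fold change -2.14 ± 0.13, adjusted p = 2.74e-05). The remaining 4, named after their values were seen, carry the GO or enzyme terms of glutamine synthetase (LOC_Os02g50240), nitrite reductase (LOC_Os02g52730), phenylalanine ammonia-lyase (LOC_Os04g43800) and aminomethyltransferase (LOC_Os04g53230). They had log2 fold changes of -1.26, -1.23, -1.30 and -1.02, and each lost its call without at least 1 Control or GAT library, with adjusted p up to 0.157, 0.09 and 0.085 in the first 3 and a fold change just under the limit in the last, without any 1 of Control replicate 1 and GAT replicate 3 (log2 fold change down to -0.94).

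Ranking all terms by their DEGs, which used the values themselves and is given as a description only, put the KEGG pathway sulfur metabolism at 3 downregulated and 0 upregulated of 14 genes. LOC_Os03g10050 carries the term of serine O-acetyltransferase, LOC_Os11g41650 that of adenylylsulfate kinase and LOC_Os04g02050 the enzyme number of sulfate adenylyltransferase, which are steps of sulfate assimilation and cysteine synthesis. Their log2 fold changes were -2.23, -1.97 and -1.01 (adjusted p = 0.00119, 0.00919 and 0.00343), and LOC_Os04g02050 fell below the fold limit without any 1 of Control replicate 3, GAT replicate 1 and GAT replicate 3 (log2 fold change down to -0.92). In the same ranking the GO term of water transport had 4 downregulated and 0 upregulated of 12 genes.

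**Figure D4:**
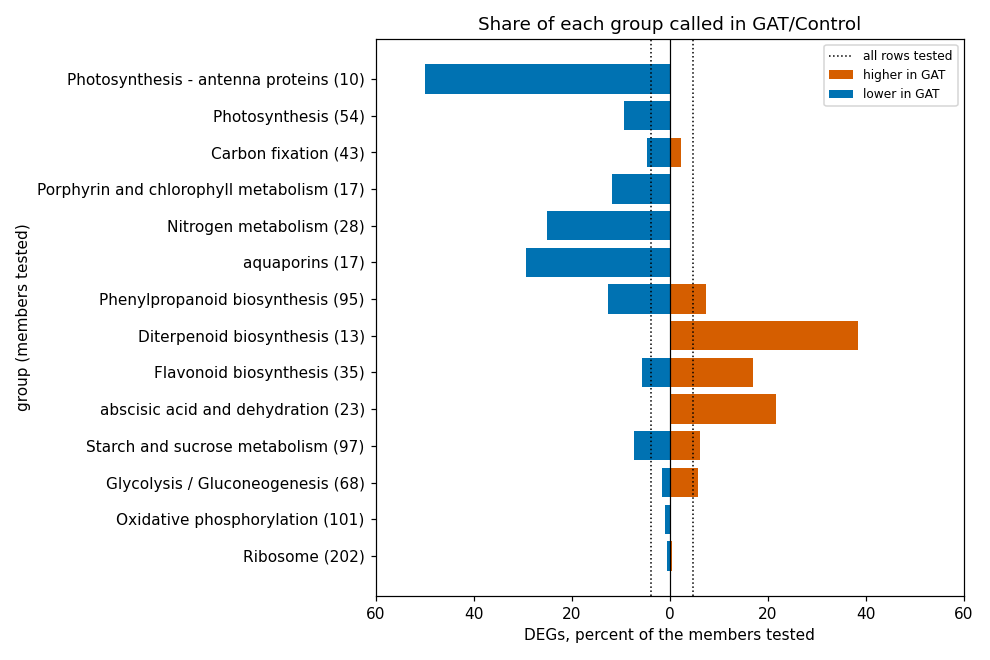
Share of the tested members of 14 groups that were upregulated (orange, to the right) or downregulated (blue, to the left) in GAT/Control, in percent, with the number tested in parentheses and dotted lines at the shares of all rows tested, 4.71% and 3.72%. The groups are 5 of photosynthesis, carbon fixation, chlorophyll and nitrogen, aquaporins, 3 of secondary metabolism, abscisic acid and dehydration, 3 of carbohydrate and energy metabolism, and ribosome. Of these 14, the antenna proteins (5 of 10), aquaporins (5 of 17) and nitrogen metabolism (7 of 28) reach farthest to the left and diterpenoid biosynthesis (5 of 13) farthest to the right, while oxidative phosphorylation and ribosome have almost no bar.

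**Figure D5:**
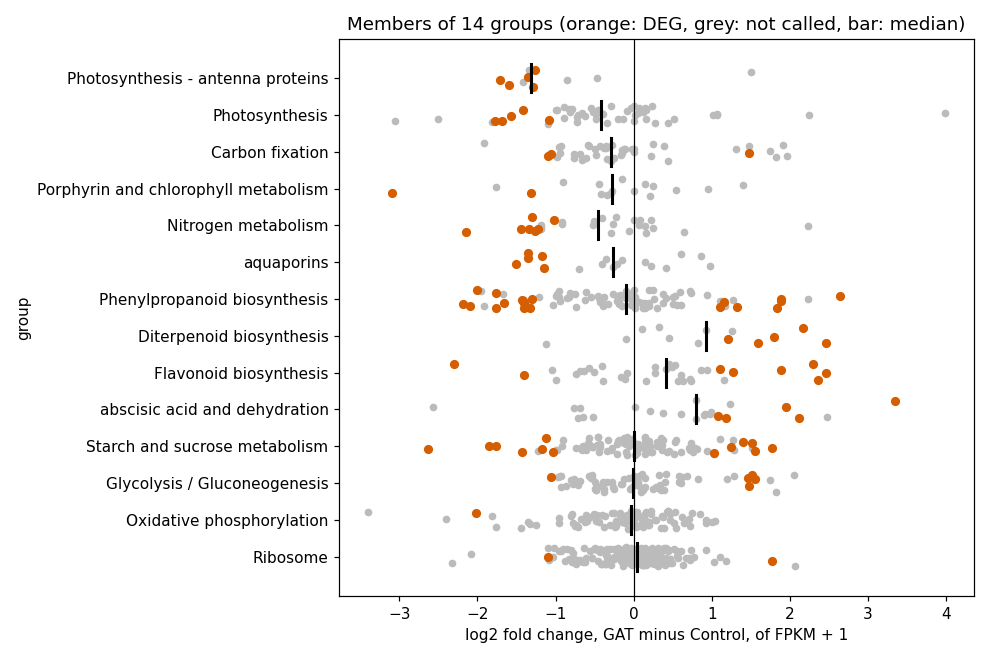
Log2 fold change of GAT minus Control (x axis) of each tested member of the same 14 groups, with DEGs in orange, other members in grey and the median as a black bar. The medians of the antenna proteins (-1.31), nitrogen metabolism (-0.46) and photosynthesis (-0.42) lie below 0, and those of diterpenoid biosynthesis (0.93) and of the abscisic acid and dehydration genes (0.80) above it.

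Aquaporins let water and small solutes cross membranes. Of 17 tested aquaporin genes, 5 (29.4%) were downregulated, against 3.72% of all rows, and 0 upregulated. The other 12 were not called, and 6 of them had higher values in GAT. LOC_Os03g05290 was at 1982, 1922 and 1894 FPKM in Control and 804, 756 and 708 in GAT (log2 fold change -1.36 ± 0.06, adjusted p = 9.20e-06). LOC_Os06g22960 was at 636, 619.5 and 620.1 and 229, 213 and 215 (log2 fold change -1.51 ± 0.07, adjusted p = 9.40e-06). In both genes every GAT library lay below every Control library by more than the spread within either group. LOC_Os01g13120, which was named after its values were seen, had log2 fold change -1.15 ± 0.16, adjusted p = 0.00179. The calls of the other 2 were lost when single libraries were left out, LOC_Os02g44630 without any 1 of Control replicate 2, Control replicate 3, GAT replicate 1, GAT replicate 2 and GAT replicate 3 (adjusted p up to 0.0862) and LOC_Os07g26640, an entry that joins more than 1 locus, without any 1 of Control replicate 1, Control replicate 2, Control replicate 3, GAT replicate 2 and GAT replicate 3 (adjusted p up to 0.0914).

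The gene families that loosen or build the cell wall differed in their share of DEGs, which was 8.42% over all rows. Of 13 expansin genes, whose products loosen walls during growth, 1 was upregulated and 1 downregulated (15.4%), with a median of -0.40. LOC_Os10g40730 fell from 10.3, 7.64 and 8.69 to 0.983, 2.31 and 0.725 FPKM (log2 fold change -2.13 ± 0.26, adjusted p = 0.00107). The β-expansin gene LOC_Os09g29690 was listed at 0 in Control and stood at 3.24, 0.778 and 1.91 FPKM in GAT, a call lost without any 1 of Control replicate 1, Control replicate 2, Control replicate 3, GAT replicate 1 and GAT replicate 3 (adjusted p up to 0.0895). Of 11 genes of xyloglucan and glucan modification 2 were downregulated and 0 upregulated (18.2%), with LOC_Os11g33270 going from 10.98, 15.6 and 15.2 to 1.56, 1.59 and 1.21 FPKM (log2 fold change -2.59 ± 0.24, adjusted p = 0.00026). None of 10 cellulose synthase genes was a DEG in limma, also in the fit of Control and GAT alone, and 2 were lower and 0 higher at an unadjusted p under 0.05. In pectin modification, 2 of 33 genes were upregulated and 5 downregulated (21.2%), among the latter the pectinesterase inhibitor gene LOC_Os03g01020 at 301, 272 and 291 FPKM in Control and 110.2, 108 and 101 in GAT (log2 fold change -1.43 ± 0.11, adjusted p = 7.29e-05).

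Genes of cell division and of the cytoskeleton held few DEGs, at shares below the 8.42% of all rows. Of 41 cyclin, kinesin and DNA replication genes, 0 were upregulated and 1 was downregulated (2.44%), the ribonucleotide reductase gene LOC_Os06g14620 at 5.501, 12.4 and 4.68 FPKM in Control and 1.92, 1.07 and 1.33 in GAT (log2 fold change -1.71 ± 0.34, adjusted p = 0.0125). This call was lost in the fit of Control and GAT alone (adjusted p = 0.0532). The markers of dividing cells, 5 loci in 4 entries of which 2 were tested, summed over these 4 entries to 11.5 to 15.1 FPKM in Control and 3.12 to 9.46 in GAT. Of 31 tubulin and actin genes, 1 was upregulated and 1 downregulated. The actin-depolymerizing factor gene LOC_Os03g13950 rose from 41.02, 34.7 and 26.8 to 82.99, 81.98 and 83.7 FPKM (log2 fold change 1.27 ± 0.17, adjusted p = 0.00187), and the tubulin/FtsZ gene LOC_Os03g45920 fell from 17.7, 13.2 and 12.9 to 6.91, 6.29 and 4.74 (log2 fold change -1.16 ± 0.19, adjusted p = 0.00526). Among 35 core histone genes, 1 was upregulated and 3 were downregulated (11.4%), a share above the 8.42% of all rows. LOC_Os10g39410, the most affected of these, was at 100.2, 101 and 106 FPKM in Control and listed at 0 in every GAT library (adjusted p = 7.30e-07). Histone genes exist in near-identical copies, so its level is uncertain.

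In the ethylene pathway, whose hormone gathers in submerged tissue and starts escape growth, 11 loci were tested, with 1 upregulated, 1 downregulated and a median of 0.55. The paper names *ACO7*, *ACS1* and *EIL2* from these samples, so their values are no independent evidence of a response. It describes them as downregulated in GAT/Control, whereas here only *ACS1* was lower in GAT and *ACO7* and *EIL2* were higher. The ACC oxidase gene *ACO7* (LOC_Os01g39860), of the last step of ethylene synthesis, was at 1.48, 2.73 and 2.502 FPKM in Control and 6.59, 10.8 and 9.52 in GAT (log2 fold change 1.62 ± 0.24, adjusted p = 0.00292). The ACC synthase gene *ACS1* (LOC_Os03g51740), of the step before, was at 3.45, 2.16 and 3.61 and 0, 0.185 and 0.617 FPKM (log2 fold change -1.69 ± 0.27, adjusted p = 0.00463). Both genes separated the groups, as every DEG did, and were low in all libraries. The transcription factor gene *EIL2* (LOC_Os07g48630) was at 146, 138 and 140.4 and 235, 216 and 233 FPKM and passed the p limit only (log2 fold change 0.68 ± 0.08, adjusted p = 0.000866), as did the receptor gene *ERS1* (LOC_Os03g49500; log2 fold change 0.69 ± 0.14, adjusted p = 0.0151). The other 7 loci tested, which include *EIN2*, *EIL1* and *ETR2*, had an adjusted p of at least 0.0685 (*ACO1*, LOC_Os09g27820).

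Of 23 tested genes of abscisic acid (ABA) and of dehydration, 5 (21.7%) were upregulated, against 4.71% of all rows, and 0 downregulated. Their median was 0.80. The other 18 were not called, and 6 of them had lower values in GAT. A pair of abscisic stress-ripening genes lie next to each other in locus number and rose together. LOC_Os01g72910 was at 4.42, 4.34 and 4.87 FPKM in Control and 26.5, 22.4 and 20.5 in GAT (log2 fold change 2.12 ± 0.19, adjusted p = 0.00021), and LOC_Os01g72900 at 3.79, 10.2 and 9.18 and 34.4, 27.6 and 30.02 (log2 fold change 1.95 ± 0.33, adjusted p = 0.006). Dehydrins protect cells under water loss. The dehydrin gene LOC_Os02g44870 was spread from 13.6 to 146 FPKM in Control and stood at 387, 407 and 425 in GAT (log2 fold change 3.34 ± 0.81, adjusted p = 0.0315), a call lost without any 1 of Control replicate 1, Control replicate 2, GAT replicate 1, GAT replicate 2 and GAT replicate 3 (adjusted p up to 0.11). The ABA synthesis gene *NCED3* (LOC_Os03g44380) was at 5.35, 2.02 and 1.66 FPKM in Control and 23.2, 16.5 and 19.9 in GAT. It did not pass in the fit of 9 libraries (log2 fold change 2.48 ± 0.91, adjusted p = 0.128), with PBT at 0, 11.7 and 12.8 FPKM, and had an adjusted p of 0.0154 in the fit of Control and GAT alone. The β-carotene hydroxylase gene *DSM2* (LOC_Os03g03370), of the xanthophylls from which ABA is made, was at 15.5, 10.8 and 7.99 and 86.6, 60.7 and 56.1 FPKM (log2 fold change 2.48 ± 0.25, adjusted p = 0.000395). The protein phosphatase 2C family, which holds negative regulators of ABA signaling, had 4 upregulated and 2 downregulated of 26 genes (23.1%, against 8.42% of all rows).

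Of the 8 tested loci of other hormone and stress pathways that the paper names, 6 were upregulated and 1 downregulated. They were chosen by the study on these samples, so their number is no independent evidence of a direction. *NPR1* (LOC_Os01g09800), the coactivator of salicylic acid signaling, was at 4.21, 5.93 and 3.79 FPKM in Control and 29.9, 26.3 and 23.5 in GAT (log2 fold change 2.30 ± 0.33, adjusted p = 0.00241). *ARF8* (LOC_Os02g41800), an auxin response factor gene, was at 1.47, 0.830 and 1.63 and 14.6, 8.32 and 9.06 FPKM (log2 fold change 2.32 ± 0.33, adjusted p = 0.00234). The co-receptor kinase gene *SERK2* (LOC_Os04g38480) was at 29.9, 34.6 and 30.6 and 101, 103 and 99.8 (log2 fold change 1.65 ± 0.12, adjusted p = 7.03e-05). All 3 separated the groups without overlap, as every DEG did. The brassinosteroid synthesis gene *DWARF4* (LOC_Os03g12660; log2 fold change 1.71 ± 0.39, adjusted p = 0.0252) lost its call without any 1 of Control replicate 1, Control replicate 2, Control replicate 3, GAT replicate 1 and GAT replicate 2 (adjusted p up to 0.0847), and *bHLH1* (LOC_Os07g43530; log2 fold change 1.16 ± 0.31, adjusted p = 0.0475) did so without any 1 of Control replicate 1, Control replicate 2, Control replicate 3, GAT replicate 1 and GAT replicate 3 (adjusted p up to 0.143). *MSR2* (LOC_Os01g72530), a calmodulin-like gene, fell from 111, 96.8 and 91.5 to 10.4, 16.9 and 18.4 FPKM (log2 fold change -2.67 ± 0.23, adjusted p = 0.00016).

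Lipoxygenase and jasmonate genes included 4 upregulated and 1 downregulated of 12 tested (41.7%, against 8.42% of all rows). The chloroplast lipoxygenase genes LOC_Os08g39850 and LOC_Os08g39840, neighbours in locus number, are of the kind that starts jasmonate synthesis from linolenic acid. LOC_Os08g39850 was at 4.24, 2.18 and 1.499 FPKM in Control and 32, 30.6 and 34.3 in GAT (log2 fold change 3.26 ± 0.27, adjusted p = 0.000118), and LOC_Os08g39840 at 15.1, 8.85 and 10.9 and 52.2, 43.4 and 44.6 (log2 fold change 1.94 ± 0.19, adjusted p = 0.000332). LOC_Os04g37430, also described as a lipoxygenase, fell from 28.2, 24.9 and 20.1 to 9.96, 11.8 and 8.95 (log2 fold change -1.17 ± 0.17, adjusted p = 0.0025), so that members of the family moved in opposite directions. In the auxin group 3 of 53 genes were upregulated and 5 downregulated (15.1%). The Aux/IAA repressor genes *OsIAA15* (LOC_Os05g08570; log2 fold change 1.30 ± 0.16, adjusted p = 0.00103) and *OsIAA25* (LOC_Os08g01780; log2 fold change -1.99 ± 0.37, adjusted p = 0.0101) changed in opposite directions. *OsSAUR19* (LOC_Os04g45370) was at 29.6, 21.1 and 22.1 FPKM in Control and 3.72, 6.44 and 7.80 in GAT (log2 fold change -1.89 ± 0.26, adjusted p = 0.0021).

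Genes of defense and of secreted proteins included DEGs in both directions. Of 175 genes with the GO term defense response, 16 (9.14%) were upregulated and 10 (5.71%) downregulated, and of 238 with extracellular region, 20 (8.4%) and 21 (8.82%). Over all rows these shares were 4.71% and 3.72%. Bowman-Birk trypsin inhibitors block digestive proteases of insects. *BBTI12* (LOC_Os01g04050) was at 41.3, 44.96 and 9.63 FPKM in Control, 279, 222 and 258 in GAT and 106, 88.9 and 98.4 in PBT (log2 fold change 3.21 ± 0.48, adjusted p = 0.00324). *BBTI2* (LOC_Os01g03320) was at 13.03, 26.1 and 16.4 in Control, 108, 89.4 and 109.8 in GAT and 2.35, 4.44 and 3.02 in PBT (log2 fold change 2.46 ± 0.27, adjusted p = 0.000634), and GAT and PBT differed too (difference of 4.62 on the log2 scale, adjusted p = 4.08e-05). The β-glucanase gene LOC_Os01g64170 rose from 12.2, 13.8 and 13.01 to 153, 118 and 112 FPKM (log2 fold change 3.19 ± 0.15, adjusted p = 9.20e-06). The thionin-like gene LOC_Os07g25050, of a family of antimicrobial peptides, was at 21.3, 14.4 and 3.97 and 0, 0.133 and 1.15 FPKM (log2 fold change -3.15 ± 0.54, adjusted p = 0.00633). The immune receptor genes of the NB-ARC class numbered 5 upregulated and 2 downregulated of 57 (12.3%, against 8.42% of all rows).

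A precursor gene of phytosulfokine, a secreted sulfated peptide that promotes growth, was among the most abundant genes that rose. LOC_Os12g05260 was at 58.4, 46.7 and 78.8 FPKM in Control, 687, 707 and 685 in GAT and 241, 221 and 248 in PBT (log2 fold change 3.51 ± 0.17, adjusted p = 9.20e-06). A gene described as a phytosulfokine receptor precursor (LOC_Os02g05980) was at 1.86, 2.15 and 1.51 FPKM in Control and listed at 0 in every GAT library (adjusted p = 0.0388), a call lost without any 1 of the 6 Control and GAT libraries (adjusted p up to 0.0861).

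Secondary metabolism showed its DEGs in separate branches. In phenylpropanoid biosynthesis, the source of lignin and other phenolics, 7 of 95 genes were upregulated and 12 downregulated (20%, against 8.42% of all rows). All the members named here are peroxidases. Of 44 peroxidase genes in the table, 3 were upregulated and 5 downregulated (18.2%). LOC_Os01g73200 rose from 4.60, 3.65 and 4.83 to 27.4, 34.7 and 34.8 FPKM (log2 fold change 2.63 ± 0.17, adjusted p = 3.88e-05), and LOC_Os01g28030 fell from 40.04, 41.4 and 44.2 to 11.01, 11.7 and 6.96 (log2 fold change -2.01 ± 0.19, adjusted p = 0.000277). In flavonoid biosynthesis 6 of 35 genes were upregulated and 2 downregulated (22.9%). LOC_Os03g03034, described as flavonol synthase or flavanone hydroxylase, was at 34.1, 39.1 and 30.5 FPKM in Control and 248, 98.2 and 244 in GAT (log2 fold change 2.36 ± 0.32, adjusted p = 0.00185). LOC_Os10g39140 with the same description was at 41.1, 15.7 and 44.1 and 133, 131 and 297 (log2 fold change 2.46 ± 0.43, adjusted p = 0.00667). A chalcone synthase-like gene (LOC_Os07g34260), of the entry step, was at 0.935, 0.684 and 1.01 and 14.5, 7.24 and 5.11 FPKM (log2 fold change 2.30 ± 0.32, adjusted p = 0.00218).

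The KEGG pathway of diterpenoid biosynthesis had 5 upregulated and 0 downregulated of 13 genes (38.5%, against 8.42% of all rows). These 5 are the 3 GA 2-oxidase genes, *GA20ox4* and LOC_Os10g39140, so the pathway repeats calls given above, 3 of which were lost when single libraries were left out. In the ranking of terms, the GO term worded as dioxygenase activity on single donors had 9 upregulated and 0 downregulated of 30 genes (30%), with a median of 0.77. This wording is that of the annotation and need not describe how each member acts. Besides the GA 2-oxidases, 4 flavonol synthase-like genes and LOC_Os07g09630, which carries the enzyme number of a prolyl hydroxylase, the term holds the jmjC domain gene LOC_Os02g46930. This gene, of a family that demethylates histones, was at 1.57, 4.04 and 1.58 FPKM in Control and 35.6, 42.2 and 36.1 in GAT (log2 fold change 3.59 ± 0.29, adjusted p = 0.000118). Of 94 cytochrome P450 genes, 10 were upregulated and 6 downregulated (17%, against 8.42% of all rows). LOC_Os06g01250 was at 34.5, 24.2 and 26.9 FPKM in Control and 4.16, 4.51 and 4.12 in GAT (log2 fold change -2.47 ± 0.18, adjusted p = 6.94e-05), and LOC_Os12g39310 at 1.94, 0.555 and 0.0754 and 8.70, 11.4 and 9.86 (log2 fold change 2.69 ± 0.35, adjusted p = 0.00148). Of 68 UDP-glycosyltransferase genes 5 were upregulated and 4 downregulated (13.2%). Among the latter, LOC_Os06g18670, described as an anthocyanidin glucosyltransferase, was at 25.4, 20.4 and 26.95 and 3.18, 2.35 and 1.21 FPKM (log2 fold change -2.999 ± 0.26, adjusted p = 0.000169).

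Several calcium sensor genes of high expression fell. Of 119 genes of calcium sensors and calcium-dependent kinases, 10 were downregulated and 6 upregulated (13.4%, against 8.42% of all rows). *OsCML10* (LOC_Os01g72100), a calmodulin-like gene, was at 118, 117 and 116 FPKM in Control, 14.4, 11.5 and 11.3 in GAT and 145, 139.8 and 134 in PBT (log2 fold change -3.15 ± 0.12, adjusted p = 4.14e-06). The EF hand genes LOC_Os09g28500 and LOC_Os09g24580 fell with -2.63 (adjusted p = 4.46e-05) and -3.58 (adjusted p = 0.000626), and *OsCML24* (LOC_Os07g48340) fell from 52.8, 53.9 and 51.9 to 13.6, 16.7 and 20.9 FPKM. Kinase genes are among the members that rose. LOC_Os07g48100, described as SNF1-like, was at 44.03, 59.7 and 56.1 FPKM in Control and 226, 236 and 226 in GAT (log2 fold change 2.10 ± 0.13, adjusted p = 3.46e-05), and LOC_Os02g34600 at 14.01, 14.1 and 13.9 and 66.3, 76 and 76.6 (log2 fold change 2.30 ± 0.12, adjusted p = 1.35e-05). A gene described as a MAP kinase kinase kinase (LOC_Os01g50420) fell from 86.9, 77.1 and 77.4 to 3.15, 7.06 and 4.78 FPKM (log2 fold change -3.81 ± 0.22, adjusted p = 2.35e-05).

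Transcription factors held DEGs in each of the families counted here, where 8.42% of all rows were DEGs. The bHLH group had 7 upregulated and 1 downregulated of 30 (26.7%), and the MYB group 7 and 2 of 49 (18.4%). The WRKY group had 4 and 1 of 40 (12.5%), the NAC group 3 and 0 of 29 (10.3%) and the AP2/ERF group 4 and 4 of 58 (13.8%). In the bZIP and homeobox groups, 9.52% and 5.26% were DEGs. The groups were formed by description, so factors without one are not counted. Among these is the WRKY gene LOC_Os01g61080, which fell and is given below. The MYB gene LOC_Os11g45740 was at 6.82, 8.58 and 7.03 FPKM in Control, 77.3, 82.96 and 75.8 in GAT and 47.5, 42.4 and 40.4 in PBT (log2 fold change 3.24 ± 0.14, adjusted p = 5.18e-06). The bHLH gene LOC_Os09g28210 was at 7.03, 5.74 and 7.29 in Control, 57.7, 73.3 and 70.5 in GAT and 16.5, 15.03 and 16.1 in PBT (log2 fold change 3.15 ± 0.16, adjusted p = 9.40e-06). The homeobox gene LOC_Os01g62310 was at 0.579, 1.31 and 1.39 and 20.6, 13.2 and 16.4 FPKM (log2 fold change 3.08 ± 0.24, adjusted p = 9.97e-05). In each of these 3 the lowest GAT library exceeded the highest Control library, as in every upregulated DEG.

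Factors that fell include the ERF gene LOC_Os02g43790, at 23.9, 16.8 and 17.5 FPKM in Control and 1.66, 1.30 and 1.67 in GAT (log2 fold change -2.99 ± 0.32, adjusted p = 0.000529), and the CCT/B-box gene LOC_Os06g15330, at 10.9, 20.5 and 12.7 and 0, 1.13 and 1.18 (log2 fold change -3.19 ± 0.35, adjusted p = 0.000596). Among the loci of the study's qRT-PCR, LOC_Os01g61080, which has no description in the table and is listed as a WRKY factor in the paper's supplement, fell from 94.9, 96.3 and 90.03 to 8.53, 8.45 and 6.01 FPKM (log2 fold change -3.46 ± 0.15, adjusted p = 6.28e-06), and LOC_Os05g27730, listed there likewise, fell from 246, 228 and 238 to 92.4, 74.3 and 87.5 (log2 fold change -1.48 ± 0.10, adjusted p = 5.84e-05). The study chose these loci on the same samples. WRKY genes that rose were lower in expression, such as *WRKY49* (LOC_Os05g49100) at 2.34, 1.43 and 1.25 FPKM in Control and 6.47, 5.97 and 9.26 in GAT (log2 fold change 1.62 ± 0.24, adjusted p = 0.00279). The 3 NAC genes that were called, LOC_Os07g37920, LOC_Os11g03300 and LOC_Os12g03050, each lost the call without at least 1 Control or GAT library, with adjusted p up to 0.0549, 0.133 and 0.0734.

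Transporter genes included some of the largest rises. A pair of genes described as transporter family proteins and annotated with the GO term response to sucrose rose together. LOC_Os07g33954, whose entry joins more than 1 locus, was at 1.91, 1.52 and 3.12 FPKM in Control, 51.7, 48.95 and 50.2 in GAT and 32.2, 32.3 and 27.6 in PBT (log2 fold change 4.04 ± 0.20, adjusted p = 9.31e-06). LOC_Os07g34006 was at 3.28, 1.65 and 4.39, 55.6, 50.7 and 55.95 and 42.8, 27.3 and 31.4 in the same order (log2 fold change 3.80 ± 0.27, adjusted p = 6.33e-05). When the 3 entries that carry the name LOC_Os07g33954 were summed, the log2 fold change was 1.29, as another of them was at 30.98 to 38.9 FPKM in Control and 39.04 to 43.1 in GAT. The locus numbers of the pair are close and their values alike, and how the reads of similar copies were divided is not known. Of 45 genes with symporter activity, 4 were upregulated and 7 downregulated (24.4%, against 8.42% of all rows). The amino acid transporter gene LOC_Os01g41420 fell from 200.2, 195 and 198 to 30.8, 35.3 and 32.6 FPKM (log2 fold change -2.55 ± 0.10, adjusted p = 4.14e-06), while LOC_Os08g03350 rose from 20.3, 24.4 and 24.6 to 172, 83.5 and 92.5 (log2 fold change 2.21 ± 0.30, adjusted p = 0.00197). The phosphate transporter gene LOC_Os10g30790 was at 49.8, 46.8 and 42.7 and 106, 107 and 105 FPKM (log2 fold change 1.17 ± 0.10, adjusted p = 0.000139). None of the 10 tested SWEET and sugar transporter genes was a DEG in limma, also with Control and GAT alone, and at an unadjusted p under 0.05 there were 1 higher and 2 lower.

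The 12 largest rises and 12 largest falls among DEGs with a description reach over many functions. LOC_Os03g58320, described as indole-3-glycerol phosphate lyase, an enzyme that frees indole, was at 0.749, 1.49 and 1.004 FPKM in Control, 27.6, 25.03 and 27.6 in GAT and 13.3, 13.95 and 12.2 in PBT (log2 fold change 3.75 ± 0.18, adjusted p = 9.20e-06), in an entry that joins more than 1 locus. The T2 ribonuclease gene LOC_Os08g33710, of a family that degrades RNA, was at 10.5, 9.38 and 12.3 FPKM in Control and 165, 166 and 152 in GAT (log2 fold change 3.80 ± 0.27, adjusted p = 5.88e-05). The von Willebrand factor domain gene LOC_Os07g42280 was at 2.39, 2.52 and 5.02 and 63.1, 57.4 and 60.99 FPKM (log2 fold change 3.89 ± 0.23, adjusted p = 2.45e-05). In these genes the GAT libraries were close together and the Control libraries low. The receptor-like kinase gene LOC_Os08g10290 and the esterase gene LOC_Os05g30760 rose with 3.63 (adjusted p = 3.51e-05) and 3.52 (adjusted p = 0.000238). The DUF581 gene LOC_Os06g03520, at 8.88, 1.21 and 18.9 and 171, 39.7 and 207 FPKM, lost its call without any 1 of Control replicate 1, Control replicate 2, GAT replicate 1 and GAT replicate 3 (adjusted p up to 0.126). LOC_Os01g11240 and LOC_Os10g42550 were listed at 0 in every Control library and lost their calls without any 1 of the Control and GAT libraries, with adjusted p up to 0.0997 and 0.0647.

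Among the largest falls, a family 8 glycosyl transferase gene (LOC_Os03g47530) was at 64.4, 68.4 and 65.4 FPKM in Control, 0.0954, 0.246 and 0.393 in GAT and 14, 14.1 and 13.5 in PBT (log2 fold change -5.76 ± 0.15, adjusted p = 7.30e-07). The heavy metal-associated domain gene LOC_Os02g37300, in an entry of more than 1 locus, fell from 96.1, 88.4 and 112 to 2.63, 4.87 and 2.05 FPKM (log2 fold change -4.63 ± 0.26, adjusted p = 1.91e-05). Isoflavone reductase-like LOC_Os01g01660 was at 23.5, 22.5 and 34.99 and 0, 2.35 and 1.45 FPKM (log2 fold change -3.77 ± 0.51, adjusted p = 0.00186). Other genes were listed at 0 in every GAT library. They are LOC_Os01g10210, described as lachrymatory factor synthase and at 42.5, 47.7 and 37.8 FPKM in Control (adjusted p = 7.30e-07), the VQ domain gene LOC_Os06g41450 at 14.2, 15.8 and 19.7 FPKM (adjusted p = 8.66e-06) and the serine carboxypeptidase gene LOC_Os05g50600 at 12.4, 10.05 and 13.8 FPKM (adjusted p = 9.65e-06). In the PBT libraries the first of these, LOC_Os01g10210, was at 34.03, 33.7 and 36.97 FPKM. The lipocalin gene LOC_Os02g39930 was also listed at 0 in GAT, and its call was lost without any 1 of Control replicate 1, Control replicate 2, Control replicate 3 and GAT replicate 1 (adjusted p up to 0.0561). The harpin-induced domain genes LOC_Os12g03370 and LOC_Os08g01220 fell with -3.45 (adjusted p = 7.15e-05) and -3.48 (adjusted p = 0.0461), the latter a call lost without any 1 of Control replicate 1, Control replicate 2 and Control replicate 3 (adjusted p up to 0.132) and a log2 fold change of -2.79 when entries of its name were summed.

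Among genes of high expression, 3 more are given that were picked with their values in view. The stress gene LOC_Os07g47670, described as a hypoxia-responsive family protein, was at 83.3, 65.9 and 69.7 FPKM in Control and 224, 219 and 203 in GAT (log2 fold change 1.56 ± 0.13, adjusted p = 0.00015). The dehydrin gene LOC_Os03g45280 was at 703, 670.4 and 675 and 1599.8, 1505 and 1533 FPKM (log2 fold change 1.18 ± 0.06, adjusted p = 1.70e-05). LOC_Os10g42610, described only as an expressed protein, was at 57.5, 96.03 and 87.8 and 819.7, 807 and 845 (log2 fold change 3.37 ± 0.18, adjusted p = 1.38e-05).

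Core functions of the cell held few DEGs. Of 202 tested genes of the KEGG pathway ribosome, 1 was upregulated and 1 downregulated, and of 101 in oxidative phosphorylation 0 and 1. Both shares lie below the 8.42% of all rows. In the ranking of terms, the KEGG pathways cell cycle (40 genes) and proteasome (42 genes) and the GO term of ATP-dependent helicase activity (50 genes) had no DEG in either direction in the limma fit. At an unadjusted p under 0.05, 6, 2 and 7 of their genes were higher and 1, 2 and 2 lower, in the same order, and the fit of Control and GAT alone called 0, 0 and 2. Of 96 heat shock and chaperone genes 3 were upregulated and 3 downregulated (6.25%).

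Most DEGs cannot be placed in a function with the table's annotation. Of the 1933 DEGs, 368 upregulated and 333 downregulated genes have a description other than NA or expressed protein, out of 7524 such genes tested (9.32%). Another 622 upregulated and 418 downregulated genes have NA as their description (of 13274), and 90 and 102 are described only as expressed protein (of 2148). GO terms are given for 308 upregulated and 281 downregulated genes of 6307 tested, and KEGG pathways for 101 and 107 of 2421. Entries without a locus name, which hold only an assembly number, had 136 upregulated and 125 downregulated of 3154 (8.28%), close to the 8.45% of entries with a locus name.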

How the data were processed

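RNA from leaves was sequenced in 9 libraries, 3 each of Control, GAT and PBT. The authors removed adaptors and reads of low quality, used Tophat for the alignment to the rice pseudomolecules and Cufflinks for the assembly of transcripts, and deposited FPKM per entry and library without pooling replicates. The annotation columns were used as deposited. FPKM hold no whole-read steps (the most common ratio of low values held at most 3.06% of them in bins of 0.01 on the log2 scale), so read depth was not recovered and precision rests on the spread of 3 libraries.

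The values tested were log2(FPKM + 1) of the 22946 entries whose mean reached 0.5 FPKM. limma 3.58.1 in R 4.3.3 was fitted to 3 group means over all 9 libraries with a variance trend, and p was adjusted over all entries by the Benjamini-Hochberg method. The contrast was GAT minus Control, and GAT minus PBT was given for some named genes. The limits for DEGs were an adjusted p of 0.05 and a difference of 1 on the log2 scale. The scripts were tested on simulated data.

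Named genes were the 12 largest rises and 12 largest falls among DEGs with a locus name and an informative description whose GAT and Control libraries did not overlap, up to 3 each way in each of 79 functional groups, and every tested locus of the lists, which hold the loci the paper names. Not all of them are printed. Members, groups and lists were chosen with earlier results of these data known. Groups were described by counts and medians without a test. Where an entry joins several loci, or 4450 tested entries share a locus name with another, the division of reads is not given in the sources used here. The files of single libraries, of which 4 of 9 held another library's column of the table, served only for that check. Promoter motifs were not analysed here. Alternatives changed the pseudocount, the filter, the scaling, the libraries in the fit, zeros, the variance trend and the limits.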

Additional observations from a re-analysis of the deposited data

How the results depend on the processing

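The 1933 DEGs (1080 upregulated, 853 downregulated) kept to within 1.5 times in most alternatives, and no named gene that was called changed its direction. Pseudocounts of 0.1 and 0.5 gave 1970 and 2002 DEGs, quantile normalization and median scaling 1863 each, no filter 1643, entries with the same name summed 1926, and no variance trend 1914. A fit of the Control and GAT libraries alone gave 1623 (895 and 728), of which 1495 were shared. With a mean of at least 5 FPKM, where fewer genes were tested, there were 1200 (708 and 492). An adjusted p under 0.01 gave 1109 (651 and 458) and an unadjusted p 3032 with 1424 downregulated, both with the fold limit, and an adjusted p without the fold limit 2752. Single zeros set to missing gave 2642 (1406 and 1236). With 1 library left out at a time there were 1651 to 1824 GAT/Control DEGs, and the GAT/Control upregulated DEGs numbered 920 to 1020 and the GAT/Control downregulated DEGs 709 to 804.

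The replicate number as a block gave 1600 DEGs (917 and 683). Deviations of Control and GAT libraries with the same number correlated at 0.00879, 0.0124 and -0.0114, so the numbers were taken as names and the libraries as unpaired.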
